A study of Mus musculus with 24 samples.

Results

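The subunits of the receptors for glutamate and for GABA, the main excitatory and the main inhibitory transmitter of the hippocampus, were measured as 47 of the 23787 genes that the array's probes could be named for. They were picked by symbol: every AMPA (*Gria*), kainate (*Grik*), delta (*Grid*) and NMDA (*Grin*) receptor gene, the metabotropic glutamate receptors (*Grm*), the GABA-A receptor genes (*Gabr*, rho subunits included) and the GABA-B receptor genes (*Gabbr*). Of 49 matching symbols, 48 had a probe, and *Grid2ip*, which encodes a scaffold protein and no subunit, was kept apart. The 47 genes comprise 26 for glutamate and 21 for GABA. They are covered by 82 probes, and each gene is represented by the brightest of its probes.

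The hippocampus of 48 male Swiss-Webster mice, given as 12 weeks old, was profiled on 24 microarrays. Each carried RNA of a control mouse labelled with the dye Cy3 and RNA of a corticosterone-treated mouse labelled with Cy5. According to the paper, mice of about that age were moved to single cages and left there for weeks before the treatment. They were thus older when tissue was taken. The treated mice had drunk water with 100 µg/ml corticosterone over the dark, active phase, and the control mice had drunk the vehicle, 0.45% hydroxypropyl-β-cyclodextrin in water, which the treated mice received too. Tissue was taken during the first, the fifth or the ninth hour of the following light (resting) phase, from 8 control and 8 treated mice at each hour, which makes 6 groups. According to the paper, the control mice were siblings of the treated mice, and each group held mice of several litters. The sample labels name no litter, and litter was not part of the fit. The comparisons ask which receptor genes differ after a night of corticosterone, and whether the difference lasts through the resting period.

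AMPA, kainate and NMDA receptors are channels built of subunits that open when glutamate binds, and NMDA receptors additionally pass the calcium that starts lasting changes of synapses. Metabotropic glutamate receptors and GABA-B receptors act through G proteins, whereas GABA-A receptors are chloride channels of several subunits, usually of alpha, beta and gamma type, and the subunit types set where the channel sits and which drugs it binds. Corticosterone is the main glucocorticoid of mice, and hippocampal neurons carry both of its receptors.

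Levels are normalized fluorescence intensities in the scanner's arbitrary units. Unless named otherwise, the intensities of a group, of a gene or as the mean of a gene list, are the lowest, the median and the highest of its 8 mice. Differences are log2 fold changes, corticosterone-treated over control, so that a value below 0 is lower after treatment. A gene is said to have risen or fallen where the adjusted p of the limma test, corrected over all 56605 probes, is under 0.05. No array had the dyes exchanged, so at a given hour an effect of the dye and of corticosterone cannot be told apart, whereas an effect of the dye that is the same on all arrays cancels in a change between hours. The tissue was measured in bulk, so fewer cells of a type and less RNA per cell cannot be told apart.

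Known corticosterone-responsive and clock genes were read first, as a check on the groups. *Tsc22d3*, which encodes the glucocorticoid-induced leucine zipper protein, rose by a log2 fold change of 0.93 during the first hour, with a higher treated value on 8 of 8 arrays (adjusted p = 4.9e-10), and fell during the ninth hour (−0.58, 0 of 8 arrays higher, adjusted p = 3.3e-05). *Fkbp5*, whose product binds the glucocorticoid receptor complex, went from 0.6 during the first hour (adjusted p = 1.9e-07, 8 of 8 arrays) over 0.31 to −0.28 during the ninth (adjusted p = 0.014, 0 of 8 arrays). *Sgk1*, a hormone-induced kinase, rose during the first hour (0.71, adjusted p = 1.2e-10, 8 of 8 arrays) and had 0 and −0.12 at the later hours. Of the 6 check genes, 4 rose and 1 fell during the first hour, 2 rose and 0 fell during the fifth, and 1 rose and 3 fell during the ninth. The clock gene *Dbp* fell during the first hour (−0.27, adjusted p = 0.0097, 0 of 8 arrays higher) and the ninth (−0.23, adjusted p = 0.034, 1 of 8).

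After a night of corticosterone, more receptor genes fell than rose in the early rest phase. During the first hour, 3 of the 47 receptor genes rose, where 10.3% of all genes did, and 12 fell, where 10.4% of all genes did. During the fifth hour 4 rose (9.9% of all genes) and 11 fell (10.9%). During the ninth hour 4 rose (8.37%) and 4 fell (7.21%). The share of receptor genes that fell was thus above that of all genes during the first and the fifth hour, and both shares were close to those of all genes during the ninth. The median log2 fold change of the 47 genes was −0.02, −0.03 and 0 at the 3 hours, beside 0, 0 and 0.01 over all genes. In all, 25 receptor genes passed the test at 1 hour or more, 10 of them only higher and 15 only lower, 0 passed it in opposite directions and 22 at no hour.

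Most of the receptor genes were well measured. The probe was well above background in all 48 channels for 40 of the 47 genes, in some channels for 5, and in none for *Gabre* and *Gabrr3*. Among these 40 genes, 3 rose and 12 fell during the first hour, 2 rose and 11 fell during the fifth, and 3 rose and 4 fell during the ninth. Of the 14893 genes measured as well, 12.4% rose and 12.3% fell during the first hour, 11.6% and 12.5% during the fifth, and 9.43% and 7.47% during the ninth. The log2 fold changes of the 40 genes ran from −0.43 to 0.23, from −0.35 to 0.27 and from −0.24 to 0.21. The arrays lay on 3 slides, with 2, 3 and 3 arrays of the first hour, 2, 3 and 3 of the fifth and 4, 2 and 2 of the ninth on slides 1, 2 and 3. With the slide as a block in the fit, 14, 15 and 8 receptor genes passed the test at the 3 hours, beside 15, 15 and 8 without it. The counts rest on all slides: without slide 2 the first hour gave 5 genes, without slide 3 the fifth hour gave 5, and without slide 1 the ninth hour gave 0 in limma, with 8 at an unadjusted p under 0.05.

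By transmitter, 1 glutamate receptor gene rose and 7 of 26 fell during the first hour, 1 rose and 6 fell during the fifth, and 2 rose and 3 fell during the ninth. Among the 21 genes of GABA receptors, 2 rose and 5 fell, then 3 rose and 5 fell, then 2 rose and 1 fell. Over all genes 10.3%, 9.9% and 8.37% rose and 10.4%, 10.9% and 7.21% fell, so the GABA receptor genes of the ninth hour were near the share of all genes. The 7 NMDA receptor genes had medians of −0.16, −0.21 and −0.23, with 5, 5 and 6 of them below 0 and 3 past the test at each hour. Among the alternatives, the median of the ninth hour became −0.12 with the authors' ratios and −0.14 without slide 1, where 5 were below 0, and 4 were below 0 during the first hour with log ratios centred on the median and during the fifth without slide 3.

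**Figure D1:**
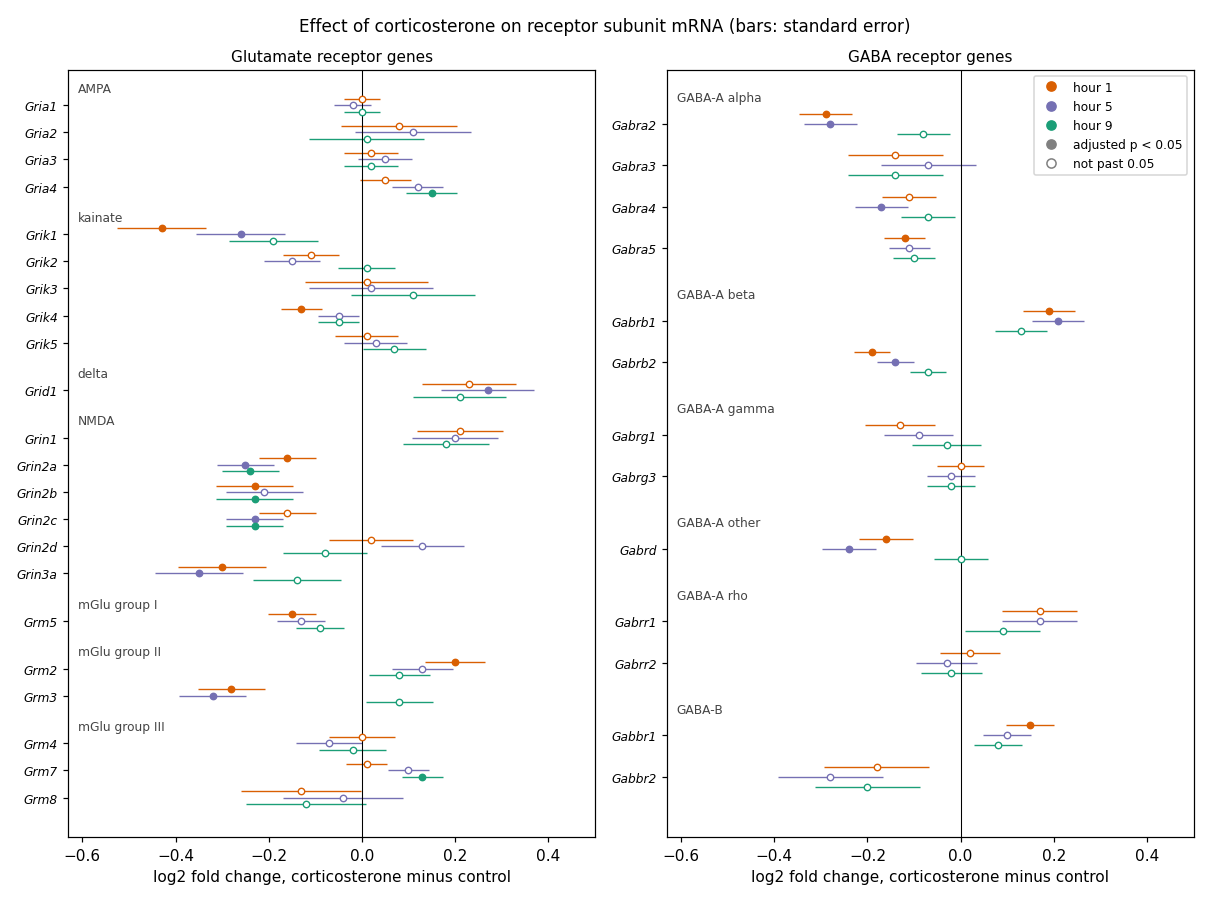
Log2 fold change of corticosterone-treated over control mice (horizontal axis, log2 units, bars ± SE) for 35 of the 40 receptor genes well above background in all 48 channels, at the first, the fifth and the ninth hour, with glutamate receptors and GABA receptors in separate panels and filled points where the adjusted p is under 0.05. The GABA-A alpha genes shown lie below 0, down to −0.29 for *Gabra2*, and *Grm3* moves from −0.32 at the fifth to 0.08 at the ninth hour.

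Among the GABA-A alpha genes, *Gabra2* encodes a subunit that is abundant in the hippocampus and is known for the calming action of benzodiazepines. Its intensity during the first hour was 10335, 11054 and 12179 in control mice and 8329, 8862 and 10835 in treated mice, and during the fifth hour 8841, 11062 and 12116 against 7545, 8648 and 10369. The treated mice were low as a group at both hours, with 7 and then 4 of 8 below every control mouse. During the ninth hour control mice had 10103, 10689 and 12957 and treated mice 9574, 10225 and 11003. The treated mice lay closer to the control group then, with 5 of 8 inside its range and 3 below it. The change of the effect between hours did not pass the test. The log2 fold change was −0.29 (SE 0.0572, adjusted p = 9.8e-05, 0 of 8 arrays higher) during the first hour, −0.28 (adjusted p = 2.0e-04, 1 of 8) during the fifth and −0.08 (adjusted p = 0.34, 2 of 8) during the ninth. Within slides 1, 2 and 3 the values were −0.26, −0.31 and −0.3, then −0.41, −0.13 and −0.34, then −0.05, −0.06 and −0.16.

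*Gabra4*, an alpha subunit of receptors outside the synapse, fell during the fifth hour (−0.17, adjusted p = 0.02, 1 of 8 arrays higher), with −0.11 and −0.07 at the other hours. *Gabra5*, whose receptors lie mostly outside synapses of hippocampal pyramidal cells, fell during the first hour (−0.12, adjusted p = 0.041) and had −0.11 and −0.1 later. Within slides the first hour gave 0.05, −0.15 and −0.2, where slide 1 joins 1 array with −0.14 and 1 with 0.25. The call was lost in 5 of 13 alternatives. A second *Gabra5* probe passed the test at all 3 hours with −0.19, −0.32 and −0.2. *Gabra3*, prominent in the embryonic forebrain, passed the test at no hour with −0.14, −0.07 and −0.14, while its second probe fell during the first (−0.35, adjusted p = 0.021, 2 of 8 arrays higher) and the fifth hour (−0.45, adjusted p = 0.0024, 1 of 8), with 1 of 8 treated mice below all control mice at each. During the ninth hour that probe had −0.29 (adjusted p = 0.07, 0 of 8 arrays higher) and did not pass the test, although 7 of 8 treated mice were below all control mice. *Gabra6*, the alpha subunit of cerebellar granule cells, was well above background in 1 of 48 channels.

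The beta genes parted in direction. *Gabrb1* encodes a beta subunit, the part of the channel that shares the GABA binding site with alpha. Its intensity during the first hour was 4379.7, 4610 and 5139 in control mice and 3995, 5539.6 and 5864 in treated mice, and during the fifth 4403, 4983 and 5539 against 5094, 5674 and 6559.6. Of the treated mice, 7 of 8 were above every control mouse during the first hour and the remaining mouse was below them all, and 4 of 8 were above during the fifth. Corticosterone-treated over control, it was 0.19 (log2, SE 0.0558, adjusted p = 0.008), 0.21 (adjusted p = 0.0035) and 0.13 (adjusted p = 0.092), with a higher treated value on 7 of 8 arrays at each hour. Within slides it was 0.19, 0.27 and 0.11, then 0.29, 0.05 and 0.32, then 0.05, 0.16 and 0.25.

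*Gabrb2*, another beta subunit, went the other way. In control mice of the first hour it had 9214, 9724 and 10239.6 and in treated mice 7961, 8401 and 9793, with 7 of 8 treated mice below all control mice. It fell by 0.19 on the log2 scale during the first hour (adjusted p = 1.1e-04, 0 of 8 arrays higher) and by 0.14 during the fifth (adjusted p = 0.0033, 1 of 8), and had −0.07 during the ninth (adjusted p = 0.18). Within slides the first hour gave −0.18, −0.16 and −0.23. Its second probe gave −0.09 during the first hour (adjusted p = 0.24) and fell during the fifth (−0.16, adjusted p = 0.038), and the third and dimmest gave 0.09 and 0.05 without passing, so the decrease of the first hour rests on the brightest probe.

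Several of these genes are neighbours on the chromosomes. *Gabrg1* and *Gabra2* follow each other, and *Gabra4* and *Gabrb1* lie next to each other on opposite strands, with 387 bases between their starts and each start inside the other gene. Neighbours did not all share a direction: *Gabra4* fell during the fifth hour, when *Gabrb1* rose. *Gabra2* fell during the first and the fifth hour, and *Gabrg1* had the same sign at both (−0.13 and −0.09) without passing the test. The promoters of this pair, and of *Gabra2* and *Gabrb2*, which fell at the same hours, are printed so that the stretches they start from can be compared. Each is the 300 bases from 250 before to 50 after a start, from RefSeq's mouse assembly GRCm38.p6, written 5′ to 3′ on the gene's own strand, and capitals mark a GC box (GGGCGG or its reverse complement CCGCCC) or the shorter element of the glucocorticoid receptor (AGAACA or TGTTCT). The regions are chr5:71658259-71658558 (minus strand) for *Gabra4*, chr5:71657671-71657970 (plus strand) for *Gabrb1*, chr5:71095800-71096099 (minus strand) for *Gabra2*, and chr11:42420190-42420489 (plus strand) for *Gabrb2*, at the first of its 3 starts in the promoter table, which lies inside the gene as RefSeq draws it.
Gabra4: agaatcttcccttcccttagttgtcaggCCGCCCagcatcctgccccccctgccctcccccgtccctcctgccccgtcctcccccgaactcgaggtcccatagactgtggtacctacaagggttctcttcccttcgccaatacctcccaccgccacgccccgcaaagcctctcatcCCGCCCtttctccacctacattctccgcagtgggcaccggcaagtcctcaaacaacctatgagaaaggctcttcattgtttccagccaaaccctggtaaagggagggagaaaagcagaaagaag
Gabrb1: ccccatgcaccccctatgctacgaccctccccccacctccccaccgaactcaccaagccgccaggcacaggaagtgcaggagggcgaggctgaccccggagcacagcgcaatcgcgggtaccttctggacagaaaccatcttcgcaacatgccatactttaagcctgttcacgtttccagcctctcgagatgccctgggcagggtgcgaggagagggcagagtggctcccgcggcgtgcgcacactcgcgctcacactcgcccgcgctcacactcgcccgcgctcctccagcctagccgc
Gabra2: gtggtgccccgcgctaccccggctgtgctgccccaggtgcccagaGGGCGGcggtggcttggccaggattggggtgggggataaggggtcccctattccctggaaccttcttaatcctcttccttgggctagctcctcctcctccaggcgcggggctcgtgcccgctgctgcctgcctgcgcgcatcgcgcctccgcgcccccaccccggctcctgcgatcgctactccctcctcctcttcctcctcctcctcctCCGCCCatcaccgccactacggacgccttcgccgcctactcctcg
Gabrb2: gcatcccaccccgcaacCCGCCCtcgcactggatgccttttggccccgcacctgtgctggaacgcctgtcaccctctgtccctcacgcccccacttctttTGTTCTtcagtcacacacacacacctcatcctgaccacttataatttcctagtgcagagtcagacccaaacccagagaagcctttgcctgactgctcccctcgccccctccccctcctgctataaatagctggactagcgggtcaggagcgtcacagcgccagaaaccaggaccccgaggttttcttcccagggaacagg
The windows of *Gabra4* and *Gabrb1* are 288 bases apart and share no base. *Gabra4* and *Gabra2* hold 2 GC boxes each, *Gabrb1* holds 0 of the letters searched, and *Gabrb2* holds 1 GC box and 1 glucocorticoid receptor element.

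Promoters were in the table for 32 of the 47 receptor genes, as 39 of 32851 promoters. With both strands read, AGAACA was in 6 of these 39 promoters, of the 5 genes *Gabrb2*, *Gabrg1*, *Gabrr2*, *Grin3b* and *Grm8*, and in 19% of all promoters. The full palindrome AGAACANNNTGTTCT, which contains that element on both strands, was in 0 of the 39 and in 0.00913% of all. The E-box CACGTG of clock proteins was in 1 receptor promoter, of *Grin1*, and in 7.15% of all, and the cAMP response element TGACGTCA was in 0 and in 1.79%. The GC box was in 19 of 39, of 18 genes, and in 35.7% of all promoters, and the TATA box TATAAA in 4 of 39, of 3 genes, and in 13.6%. Of the 5 genes with the glucocorticoid receptor element, *Gabrb2* passed the test at the first and the fifth hour and the others at none. These matches are descriptions of letters.

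Gamma subunits anchor GABA-A receptors at synapses. *Gabrg1* and *Gabrg3* passed the test at no hour, with values between −0.13 and 0.

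*Gabrd* encodes the delta subunit of receptors outside the synapse, which respond to neurosteroids and in the hippocampus are best known from dentate granule cells. During the fifth hour its intensity was 1527, 1658 and 2081 in control mice and 1299.5, 1449 and 1575 in treated mice. Treated mice were the lower group, 5 of 8 of them below all control mice. It fell during the first hour (−0.16, adjusted p = 0.043, 3 of 8 arrays higher) and the fifth (−0.24, adjusted p = 0.0014, 1 of 8) and had 0 during the ninth. Within slides it was 0.03, −0.24 and −0.19 during the first hour, so slide 1 gave no decrease there, and −0.45, −0.15 and −0.2 during the fifth. The call of the first hour was lost in 7 of 12 alternatives (−0.22 to −0.1), that of the fifth in 0.

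*Gabrp*, the pi subunit known mainly from tissues outside the brain, lay close to background. During the fifth hour its intensity was 15.4, 23.4 and 31.6 in control mice and 26.1, 38.1 and 51.7 in treated mice, and 0 of 8 control mice but 6 of 8 treated mice had it well above background. The treated group was at least 1.3-fold higher (adjusted p = 0.0027, 7 of 8 arrays), a lower bound that replaces the dim probe by the lowest signal well above background on its array. A similar split stood at the other hours, where the test was not passed. During the first hour 1 of 8 control and 7 of 8 treated mice had *Gabrp* well above background, and during the ninth 0 and 5 (adjusted p = 0.3). Control mice were always read in Cy3 and treated mice in Cy5. Over the arrays 60.8% to 67.2% of all probes were well above background in Cy3 and 64% to 73.5% in Cy5. Dye and corticosterone thus cannot be told apart in this split or in the bound. *Gabre* during the fifth hour (adjusted p = 0.045) and *Gabrr3* during the ninth (adjusted p = 0.009), genes for the epsilon subunit and a rho subunit, passed the test as higher on 6 of 8 arrays each, but neither was well above background in any channel, so no fold is given, and the call of *Gabre* was kept in only 2 of 11 alternatives. The other 2 rho genes passed the test at no hour.

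For the metabotropic GABA-B receptor, *Gabbr1* encodes the subunit that binds GABA. Its intensity during the first hour was 13895, 15716 and 16397 in control mice and 16262, 17207 and 18222 in treated mice. All treated mice but 1 were above the control group. It rose by 0.15 (SE 0.0515, adjusted p = 0.023, 8 of 8 arrays; 1.11-fold), with 0.13, 0.2 and 0.11 within slides, and had 0.1 and 0.08 at the later hours. Its second brightest probe gave −0.06 during the first hour, so the direction held for the brightest probe only, and the call was kept in 7 of 13 alternatives. *Gabbr2*, the partner that couples to the G protein, had −0.18, −0.28 and −0.2 and did not pass the test.

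**Figure D2:**
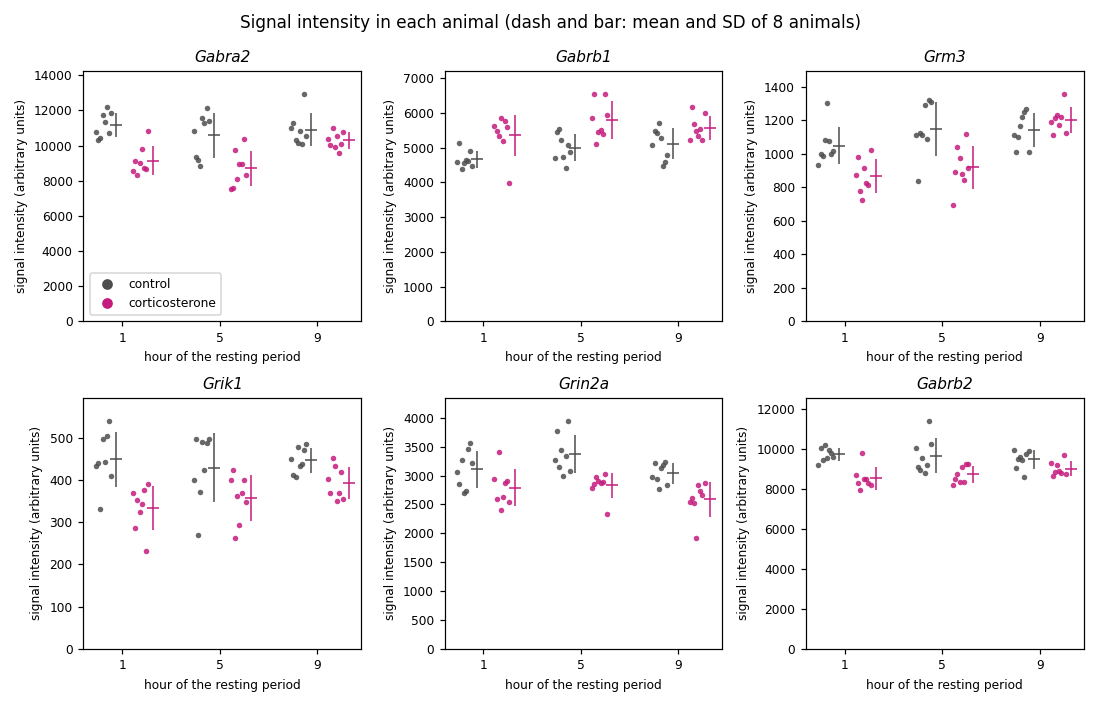
Normalized intensity (vertical axis, arbitrary units, from 0) in each mouse at the first, the fifth and the ninth hour for *Gabra2*, *Gabrb1*, *Grm3*, *Grik1*, *Grin2a* and *Gabrb2*, with grey for 8 control and pink for 8 corticosterone-treated mice per hour and bars for the mean ± SD. The treated mice lie low for *Grin2a* at the fifth and the ninth hour, whereas those of *Grm3* move from a median of 848 during the first hour to 1202 during the ninth.

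Of the NMDA receptor genes, those of the 2A, 2B, 2C and 3A subunits fell at some hour. *Grin2a* encodes the subunit that prevails at mature synapses. Its intensity was 2706, 3139 and 3556 in control mice and 2399, 2746 and 3417 in treated mice during the first hour, 2991, 3304 and 3949 against 2339, 2880.1 and 3028 during the fifth, and 2772, 3054 and 3243 against 1913, 2637 and 2877 during the ninth. The groups overlapped broadly at first, and then 7 and 6 of 8 treated mice were below all control mice. The log2 fold change was −0.16 (SE 0.0612, adjusted p = 0.048, 1 of 8 arrays higher), −0.25 (adjusted p = 0.0017, 0 of 8) and −0.24 (adjusted p = 0.0039, 1 of 8). Within slides it was −0.1, −0.06 and −0.3, then −0.32, −0.13 and −0.33, then −0.32, −0.18 and −0.13. With the slide as a block the first hour kept −0.16 and missed the threshold (adjusted p = 0.054), and 8 of 13 alternatives lost that call. A second probe of *Grin2a* gave −0.01, −0.03 and −0.02, so the decrease rests on the brighter probe.

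*Grin3a* encodes a subunit that lowers the calcium flow of NMDA receptors. During the fifth hour its intensity was 2667, 3135 and 4172 in control mice and 2019.7, 2577 and 3116 in treated mice, with 5 of 8 treated mice below all control mice. It fell during the first hour (−0.3, SE 0.0948, adjusted p = 0.018, 1 of 8 arrays higher) and the fifth (−0.35, adjusted p = 0.0057, 1 of 8), and had −0.14 during the ninth (adjusted p = 0.34). Within slides 1, 2 and 3 the first hour gave −0.02, −0.31 and −0.47 and the fifth −0.33, −0.27 and −0.43. The mean of slide 1 in the first hour joins 1 array with 0.41 and 1 with −0.45.

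*Grin2b*, the subunit that prevails early in life, had an intensity of 3821, 4338 and 4833 in control mice and 3293, 3822 and 3962 in treated mice during the first hour. Here 4 of 8 treated mice lay below the control group. It fell during the first hour (−0.23, adjusted p = 0.036, 0 of 8 arrays higher) and the ninth (−0.23, adjusted p = 0.046, 0 of 8), while the fifth hour gave −0.21 (adjusted p = 0.053, 1 of 8). In the test on log ratios with the array as replicate block, the fifth hour passed (−0.21, adjusted p = 0.022). That hour also passed with the authors' ratios (−0.2, adjusted p = 0.028), without slide 1 and among probes well above background. As an alternative, this filter took probes well above background in all 8 mice of at least 1 group. It kept the p values of the main fit and ran only the adjustment again, over fewer probes. The call of the ninth hour was lost in 5 of 13 alternatives (−0.26 to −0.14). Its second probe passed the test at all 3 hours with −0.25, −0.29 and −0.24. *Grin2c*, best known from the cerebellum and from astrocytes, fell during the fifth (−0.23, adjusted p = 0.0036, 0 of 8) and the ninth hour (−0.23, adjusted p = 0.0057, 0 of 8). During the first hour *Grin2c* missed the threshold in limma (adjusted p = 0.053). There it passed in the test on log ratios with the array as replicate block (−0.16, adjusted p = 0.012). With the authors' ratios it passed too (−0.15, adjusted p = 0.015), as with processed signals, among probes well above background and without slide 3. Its second probe, with −0.09, −0.1 and −0.08, did not pass the test. *Grin1*, the subunit every NMDA receptor needs, had 0.21, 0.2 and 0.18 (adjusted p = 0.091, 0.11 and 0.18). It was higher on 7, 6 and 8 of 8 arrays and did not pass the test. With processed signals *Grin1* passed the limma test as higher during the first and the fifth hour (0.23 and 0.23, adjusted p = 0.035 and 0.035). Without slide 3 it passed during the first hour (0.25, adjusted p = 0.047). *Grin2d* and *Grin3b* did not pass the test either, though *Grin3b* passed as lower during the ninth hour with processed signals (−0.57, adjusted p = 0.044).

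Among the kainate receptors, which act on both sides of the synapse, *Grik1* gave the lowest log2 fold change of the 40 genes well above background in all channels. During the first hour its intensity was 331, 441 and 540.1 in control mice and 231, 347 and 390.2 in treated mice. The treated group was low, with 3 of 8 below every control mouse and the others inside the control range. The log2 fold change was −0.43 (SE 0.0956, adjusted p = 6.7e-04), −0.26 (adjusted p = 0.041) and −0.19 (adjusted p = 0.16), with 1 of 8 arrays higher at each hour, and the first hour's ratio was 0.741. The call of the fifth hour was lost in 8 of 13 alternatives (−0.3 to −0.14), that of the first in 0. Within slides it was −0.42, −0.3 and −0.57, then −0.11, −0.27 and −0.34, then −0.08, −0.28 and −0.31. *Grik4*, a subunit that works only together with others, fell during the first hour (−0.13, adjusted p = 0.018). *Grik3* and *Grik5* passed the test at no hour, with values from 0.01 to 0.11.

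The delta receptors are glutamate receptor relatives that join synapses together. *Grid1*, the form of the forebrain, had an intensity of 129.9, 187 and 236 in control mice and 185, 224 and 265 in treated mice during the fifth hour. The ranges overlapped in part, with 3 of 8 treated mice above all control mice. It rose by 0.27 (SE 0.1, adjusted p = 0.044, 7 of 8 arrays; 1.21-fold), and within slides by 0.19, 0.08 and 0.51; the other hours gave 0.23 and 0.21 without passing. The call was lost in 5 of 12 alternatives, with values from 0.13 to 0.39.

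Of the 4 genes of AMPA receptors, which carry the fast excitatory current, 1 passed the test at 1 hour. *Gria1*, *Gria2* and *Gria3* had values from −0.02 to 0.11 over the 3 hours and did not pass the test. *Gria4*, the AMPA subunit typical of interneurons, had an intensity of 1316, 1486 and 1756 in control mice and 1527, 1684 and 1771 in treated mice during the ninth hour. Both groups overlapped, with only 2 of 8 treated mice above the control range. It rose by 0.15 (log2, SE 0.0549, adjusted p = 0.045, 8 of 8 arrays; 1.11-fold), after 0.05 and 0.12 at the earlier hours, and within slides it was 0.2, 0.09 and 0.09. The call was lost in 5 of 13 alternatives. A second probe showed 711, 772 and 809 in control mice and 871, 939 and 975 in treated mice during the ninth hour. Those groups did not overlap, and this probe passed the test at all 3 hours (0.16, 0.23 and 0.28; adjusted p = 0.033, 0.0017 and 3.5e-04), while the third probe gave −0.11, −0.1 and −0.05 without passing.

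The metabotropic glutamate receptors of group I lie mostly behind the synapse, those of groups II and III mostly before it. *Grm5* of group I had an intensity of 16553, 17453 and 19929 in control mice and 14942, 15662 and 19735 in treated mice during the first hour. Most treated mice, 6 of 8, were below the control group, while 1 was as high as the top of it. It fell (−0.15, SE 0.0518, adjusted p = 0.023, 1 of 8 arrays higher), with −0.18, −0.08 and −0.21 within slides, and a second probe passed the test at all 3 hours with −0.28, −0.26 and −0.24. In group II, *Grm2*, a brake on transmitter release, rose during the first hour (0.2, adjusted p = 0.019, 7 of 8 arrays). In group III, *Grm7*, which sits at release sites, had 3312, 3355 and 3569.7 in control mice and 3214, 3726 and 4253 in treated mice during the ninth hour. Of the treated mice 6 of 8 were above and 1 was below the whole control group. It rose by 0.13 (SE 0.0445, adjusted p = 0.032, 7 of 8 arrays; 1.09-fold), within slides by 0.19, 0.11 and 0.03, and its second probe gave −0.13; the call was kept in 6 of 13 alternatives. *Grm4* and *Grm8* passed the test at no hour, and *Grm6*, the receptor of retinal bipolar cells, was well above background in 1 of 48 channels.

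*Grm3*, the other group II gene, is expressed by astrocytes as well as by neurons and differed most between early and late rest among the 47 genes, the first hour set against the ninth. During the first hour its intensity was 934, 1008 and 1300 in control mice and 727, 848 and 1024 in treated mice, and during the fifth 835, 1118 and 1321 against 693, 904 and 1116. Treated mice were the low group at both hours, with 6 and then 1 of 8 below every control mouse. During the ninth hour control mice had 1011, 1137 and 1269 and treated mice 1109.8, 1202 and 1359, so the groups then lay on top of each other. The log2 fold change was −0.28 (SE 0.0717, adjusted p = 0.0036, 1 of 8 arrays higher), −0.32 (adjusted p = 7.2e-04, 1 of 8) and 0.08 (adjusted p = 0.5, 6 of 8). Within slides it was −0.06, −0.48 and −0.22, then −0.3, −0.28 and −0.37, then 0.11, −0.05 and 0.12. Its promoter, shown because the gene moved most between hours, is chr5:9725303-9725602 (minus strand) of the same assembly and holds 2 GC boxes that follow each other.
Grm3: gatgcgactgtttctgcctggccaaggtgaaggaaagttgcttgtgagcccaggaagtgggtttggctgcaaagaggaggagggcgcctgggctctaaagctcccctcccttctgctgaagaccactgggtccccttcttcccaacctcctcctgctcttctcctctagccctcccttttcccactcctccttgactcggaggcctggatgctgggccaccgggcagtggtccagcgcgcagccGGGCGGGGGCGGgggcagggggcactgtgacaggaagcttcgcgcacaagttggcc

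Whether the effect of corticosterone itself changed from hour to hour was tested as the difference of the log2 fold changes. Between the first and the ninth hour 0 of the 47 receptor genes passed this limma test, where 1.45% of all genes did, and 4 had an unadjusted p under 0.05. From the first to the fifth hour 0 passed (0.0631% of all genes) and 0 had an unadjusted p under 0.05, and from the fifth to the ninth 0 passed (0.156%) with 3 under it. The value of *Grm3* was 0.35 (SE 0.101, adjusted p = 0.073), and that of *Gabra2* 0.21 (adjusted p = 0.32). With the limma p values adjusted only over the 36170 probes well above background in all 8 mice of at least 1 group, the adjusted p of *Grm3* was 0.049. Its value stayed 0.35, because the fit was the same.

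In control mice, the hours were compared over the Cy3 channels. Between the first and the ninth hour 0 receptor genes passed the limma test (0.837% of all genes), and 9 had an unadjusted p under 0.05. Between the first and the fifth hour 0 passed (0.00841%), with 3 under it, and between the fifth and the ninth 0 passed (0.0673%), with 3 under it. The receptor genes of untreated mice thus gave no call through the resting period, while *Dbp*, which follows the clock, rose by 0.85 from the first to the ninth hour (adjusted p = 5.2e-08). *Grik4* came closest to a call, with −0.18 between the first and the ninth hour (adjusted p = 0.063); with the slide as a block it was −0.2 and passed the test (adjusted p = 0.029).

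In corticosterone-treated mice, 2 receptor genes rose and 0 fell from the first to the ninth hour, where 6.22% of all genes passed the test in either direction. From the first to the fifth hour 0 passed the limma test (0.858%), with 2 at an unadjusted p under 0.05, and from the fifth to the ninth 3 rose and 0 fell (1.11%). *Grm3* rose by 0.48 from the first to the ninth hour (SE 0.0836, adjusted p = 6.5e-05; 1.39-fold) and by 0.4 from the fifth (adjusted p = 0.0058). All 8 treated mice of the ninth hour lay above all 8 of the first, and the control mice gave 0.12 (adjusted p = 0.63) and 0 for the same steps. With the slide as a block both treated steps still passed, at 0.51 and 0.43.

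*Grik2*, the gene of the most common kainate subunit, had an intensity of 385, 442 and 510.2 during the first, 409.8, 464 and 565 during the fifth and 498, 561 and 648 during the ninth hour in treated mice. Nearly all treated mice of the ninth hour, 7 of 8, were above those of the first. It rose by 0.34 from the first to the ninth hour (SE 0.0703, adjusted p = 8.2e-04) and by 0.26 from the fifth (adjusted p = 0.05 when rounded, just under the threshold). The control mice moved the same way without passing the test, from 396, 483 and 565 to 498, 556 and 622, a change of 0.22 (adjusted p = 0.13). The difference between both changes was 0.12 (adjusted p = 0.9), and a second probe of *Grik2* gave −0.08 and −0.16 for the treated steps. *Gabra2* rose by 0.25 in treated mice between the fifth and the ninth hour (adjusted p = 0.046, SE 0.0667), beside 0.05 (adjusted p = 0.93) in control mice. From the fifth to the ninth hour the calls in treated mice were kept in 3 of 11 alternatives for *Gabra2*, with values from 0.15 to 0.29, and in 2 of 11 for *Grik2*.

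**Figure D3:**
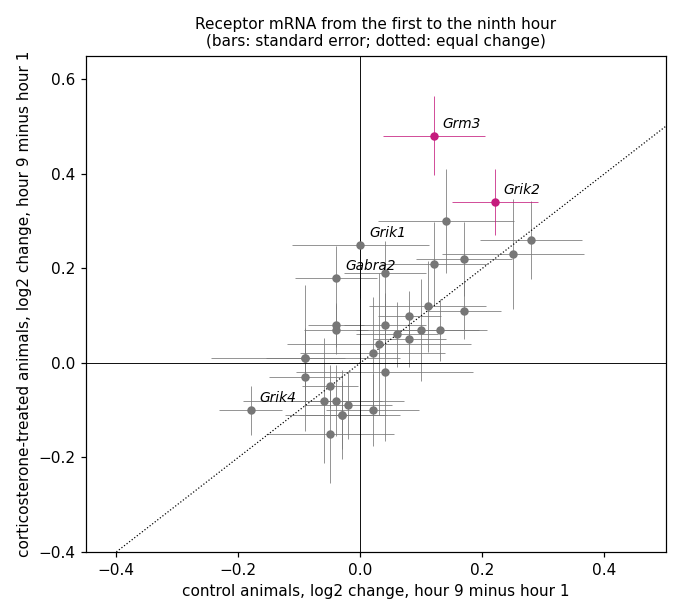
Log2 difference between the first and the ninth hour (ninth minus first) in control mice (horizontal axis) against that in corticosterone-treated mice (vertical axis), in log2 units with bars ± SE, for 35 of the 40 receptor genes well above background in all 48 channels and with a dotted line where both changes are equal. *Grm3* lies farthest above the line, at 0.12 and 0.48, and *Grik2* lies at 0.22 and 0.34; both are coloured because they passed the test in treated mice.

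Where a gene has several probes, they test different stretches of its transcripts. Of the 27 genes with more than 1 probe, all probes of a gene had the same sign for 18, 19 and 13 genes at the 3 hours. All probes passed the test for 4, 1 and 1 of these genes, some did for 6, 13 and 10, and none did for 17, 13 and 16. Probes of a gene never passed the test in opposite directions. The 4 probes of *Gabra2* all fell during the first hour (−0.29, −0.26, −0.3 and −0.31) and the fifth (−0.28, −0.21, −0.26 and −0.31). The dimmest of them was still lower during the ninth hour (−0.2), with 3808, 4101 and 4421 in control mice and 3112, 3593 and 3743 in treated mice, and the others had −0.08, −0.03 and −0.04. On that probe the groups did not overlap at any of the 3 hours. Of all 82 probes, the third probe of *Gabra2* was the only 1 whose effect changed between hours, by 0.25 between the first and the ninth (adjusted p = 0.012). For *Grik1*, 3 of 4 probes fell during the first hour, with −0.43, −0.34 and −0.25, and the dimmest had −0.1, while during the fifth hour the brightest alone passed the test.

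**Figure D4:**
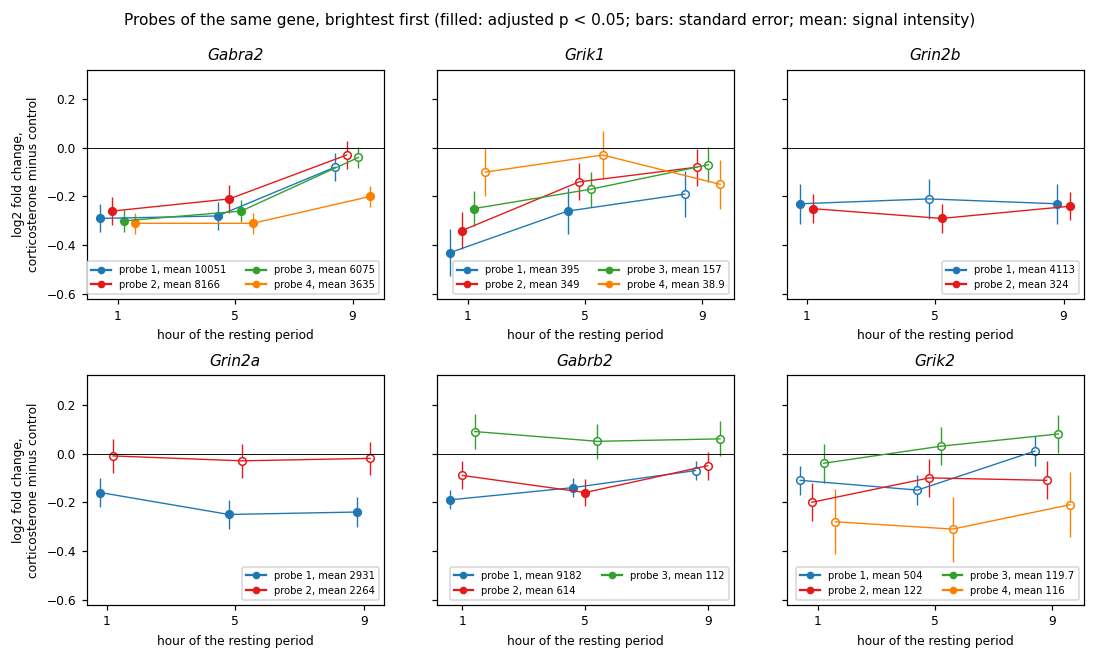
Log2 fold change (vertical axis, log2 units, bars ± SE) of each probe of *Gabra2*, *Grik1*, *Grin2b*, *Grin2a*, *Gabrb2* and *Grik2* at the first, the fifth and the ninth hour, with filled points where the adjusted p is under 0.05 and the probe's mean intensity in the key. The 4 *Gabra2* probes lie together near −0.3 during the first hour, while the probes of *Grin2a* lie apart, at −0.16 and −0.01.

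The proteins that traffic and anchor the receptors were read from lists of genes. Beside the counts of this and the later lists, 10.3%, 9.9% and 8.37% of all genes rose and 10.4%, 10.9% and 7.21% fell at the 3 hours. Of 36 measured genes for glutamate receptor partners and scaffolds, 9 rose and 2 fell during the first hour, 7 rose and 2 fell during the fifth, and 5 rose and 2 fell during the ninth, with medians of 0.07, 0.08 and 0.06. *Cnih2*, whose product slows the closing of AMPA receptors, rose at each hour (0.34, 0.36 and 0.31; adjusted p = 1.8e-06, 7.7e-07 and 2.7e-05; 7, 8 and 8 of 8 arrays). *Cacng5*, of the family of AMPA receptor regulators, rose during the first (0.55, adjusted p = 1.2e-06) and the fifth hour (0.38, adjusted p = 4.1e-04), on 8 of 8 arrays each. *Cacng2*, which encodes stargazin and brings AMPA receptors to the synapse, fell at each hour (−0.33, −0.35 and −0.33; adjusted p = 0.0013, 6.7e-04 and 0.0018; 1, 0 and 0 of 8 arrays higher). The AMPA subunits' own genes had medians of 0.04, 0.08 and 0.01 at the same hours.

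Of 17 genes for GABA receptor partners and scaffolds, 1 rose and 3 fell, then 3 rose and 1 fell, then 1 rose and 2 fell, with medians of 0, −0.02 and −0.02. *Shisa7*, whose product sits with GABA-A receptors, rose during the first (0.34, adjusted p = 3.9e-06, 7 of 8 arrays) and the fifth hour (0.21, adjusted p = 0.0027, 6 of 8). *Kctd16*, a GABA-B receptor partner, fell at the same hours (−0.18 and −0.24; adjusted p = 0.018 and 0.0016; 2 and 1 of 8 arrays higher). *Plcl1*, which binds GABA-A beta subunits, fell during the ninth hour (−0.2, adjusted p = 0.034, 0 of 8 arrays higher).

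Of 14 genes for the synthesis and transport of both transmitters, 4 rose and 1 fell, then 7 rose and 1 fell, then 6 rose and 0 fell, with medians of 0.15, 0.19 and 0.13. *Glul*, the glutamine synthetase of astrocytes, rose at each hour (0.37, 0.25 and 0.14; adjusted p = 1.6e-08, 6.2e-05 and 0.026; 8, 8 and 7 of 8 arrays). *Slc6a11*, the GABA transporter of astrocytes, rose by 0.27, 0.19 and 0.25 (adjusted p = 3.5e-04, 0.014 and 0.0016). *Slc32a1*, which loads GABA into vesicles, rose during the fifth and the ninth hour (0.24 and 0.2; adjusted p = 0.0014 and 0.0081). The mean log2 intensity of the whole list was 12.28, 12.39 and 12.45 in control mice and 12.42, 12.52 and 12.6 in treated mice during the first hour.

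Cell type markers were read beside the receptors. Of 5 markers of excitatory neurons 0 passed the limma test at any hour, with 1 at an unadjusted p under 0.05 at each, and the mean log2 intensity of that list, with *Camk2a* brightest, was 13.69, 13.76 and 13.82 in control and 13.36, 13.89 and 14.02 in treated mice during the first hour. Of 6 interneuron markers 4 rose during the fifth hour, 1 during the ninth and 0 during the first, where limma gave 2 an unadjusted p under 0.05. Their list mean, with *Sst* brightest, was 12.88, 12.96 and 13.07 in control and 13.09, 13.14 and 13.23 in treated mice during the fifth hour, so these groups did not overlap. Of 4 microglia markers 3, 2 and 1 fell at the 3 hours, with a list mean of 11.22, 11.4 and 11.49 in control and 10.86, 11.11 and 11.27 in treated mice during the first hour and *Csf1r* brightest. Of 5 astrocyte markers 1 rose and 1 fell during the first hour and 1 rose and 2 fell at the later ones, with *Aldh1l1* higher and *Aqp4* lower each time. The list mean of the astrocyte markers, with *Slc1a3* brightest, was 11.73, 11.88 and 12 in control and 11.8, 11.87 and 11.97 in treated mice during the first hour. Their part in the receptor results was not tested.

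Of 5 oligodendrocyte markers 2 rose and 2 fell at each hour, and of 2 markers of their precursors 0 passed the limma test, with 1, 1 and 0 at an unadjusted p under 0.05. Of 4 endothelial markers 1 rose and 3 fell, then 1 rose and 2 fell, then 1 rose and 1 fell, with *Flt1* brightest and a list mean of 9.54, 9.65 and 9.72 in control and 9.27, 9.42 and 9.65 in treated mice during the first hour. Within the hippocampus, *Spink8* of 2 CA1 pyramidal cell markers rose at each hour (0.61, 0.5 and 0.37), while *Wfs1*, the brighter of both, had 0.04, −0.2 and −0.28 (adjusted p = 0.85, 0.22 and 0.097) and did not pass the test. Of 3 dentate granule cell markers 1 rose during the first and 1 during the ninth hour. For tissue next to the hippocampus, 1 of 3 thalamus markers rose during the first hour and 0 later, and 0 of 4 choroid plexus markers passed the limma test or had an unadjusted p under 0.05 at any hour. Of both cerebellar granule cell markers, *Gabra6* was well above background in 1 and *Cbln3* in 0 of 48 channels. Their part in the receptor results was not tested either.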

How the data were processed

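Agilent scanner files of 24 arrays were used, whose spot intensity values in both channels were deposited by the authors as raw scanner output. The authors also deposited log2 ratios of Cy5 over Cy3, which lie close to the loess values computed here (offset 50, median absolute difference 0.00121) and served as an alternative. Each array has 62976 spots, and 3671 control spots were left out. Background was corrected by normexp, arrays were normalized by loess within and quantile between arrays, and 6 groups were fitted in 1 separate-channel model (intraspot correlation 0.279) with limma 3.58.1 in R 4.3.3, with the packages data.table (1.17.8), jsonlite (2.0.0) and statmod (1.5.0). As in the study's methods, an offset of 50 was used for p values and 0 for fold changes and intensities; taking standard errors from the fit without offset was a choice made here. Benjamini-Hochberg adjustment ran over 56605 probes, and the code for the tests was tested on simulated data. Between 60.8% and 67.2% of probes were well above background in Cy3 and 64% to 73.5% in Cy5, with 0 saturated spots, and the number of arrays limits the precision. Accessions gave a symbol to 34566 probes.

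Named in full were receptor genes called at all 3 hours in 1 direction, called between hours, or called in opposite directions, and of each class the called gene with the largest absolute log2 fold change. Of each partner list the 3 called genes with the largest absolute log2 fold change were named. The members and lists were chosen with earlier results of these data known, and other genes were named after their values were seen. The lists cover receptor partners, synthesis and transport, cell type markers and check genes, and *Nptxr* had no probe. Alternatives changed the background correction, offset, normalization, probe filter, test, slide and probe. Promoters and neighbours came from RefSeq (GRCm38.p6). Figures were drawn with matplotlib 3.10.9 in Python 3.11.15. *Grid2ip* had 0.08, 0.02 and 0.06 and was not called. Some receptor and marker genes are included in the counts but are not reported here.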

Additional observations from a re-analysis of the deposited data

Results flagged for a closer look

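Mice that stood apart were looked for in the 14 reported receptor genes picked by the rule for naming in full. These include *Gabrr3*, whereas *Gabrb2*, *Gabrd* and *Grin2b* were not among them and were not checked in this way. In 10 of 84 groups of 8 mice, the lowest or highest mouse stood apart from the next by more than the 95% limit of Dixon's test. Chance gives this in about 1 in 20 groups. All genes were measured in the same 48 mice, so the groups are not independent and the count cannot be set against that share; the treated mouse of the first hour that stood apart for *Gabrb1* is the same as for *Grm5*. The gap and the group's whole range were taken on log2 intensities; on intensities as printed, 8 of these 10 groups are past the limit, and *Gabbr1* (0.521) and *Grm3* in control mice of the fifth hour (0.517) are not. The gap, as a share of the range, was 0.562 for *Gabbr1* in treated mice of the fifth hour (lowest 14397, next 17416, highest 20197). For *Gabra2* it was 0.556 in control mice of the ninth hour (highest 12957, next 11284). For *Gabrb1* it was 0.69 in treated mice of the first hour (lowest 3995, next 5206), the 1 mouse below all control mice. For *Gria4* it was 0.593 in treated mice of the fifth hour (highest 1859.7, next 1702). *Grin2a* had low treated mice during the fifth (0.683, 2339 and next 2790.3) and the ninth hour (0.682, 1913 and next 2527). *Grin3a* had 0.633 in treated mice of the ninth hour (lowest 2088, next 2776). *Grm3* had 0.547 in control mice of the first hour (highest 1300, next 1085) and 0.574 in those of the fifth (lowest 835, next 1087). *Grm5* had 0.621 in treated mice of the first hour (highest 19735, next 16605). Why these mice stood apart was not tested.

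Effects that differed between hours by the test of the difference were found for the third probe of *Gabra2* (0.25 from the first to the ninth hour) and for genes of the lists. From the first to the ninth hour the effect on *Plcl1* changed by −0.36 (adjusted p = 0.033), on *Glul* by −0.23 (adjusted p = 0.049) and on the endothelial marker *Cldn5* by 0.6 (adjusted p = 2.5e-05). The check genes went down: *Fkbp5* by −0.88 from the first and −0.58 from the fifth to the ninth hour, *Per1* by −0.31 from the first to the ninth, and *Sgk1* by −0.83 from the first to the ninth and −0.72 from the first to the fifth. For *Tsc22d3* the effect changed by −1.51 from the first to the ninth hour, −0.73 from the first to the fifth and −0.78 from the fifth to the ninth.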

How the results depend on the processing

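Of 43 receptor results past the test (38 at single hours), 8 kept their direction and their call under every alternative run, among them *Gabra2* during the first and the fifth hour, *Grik1* during the first, *Gabrd* and *Grm3* during the fifth, and the rise of *Grm3* in treated mice from the first to the ninth hour. By alternative, 32 of 43 were kept with an offset of 0, 40 without background correction, 40 with log ratios centred on the median, 36 with Aquantile normalization, 36 with processed signals, 40 with the slide as a block, and 21, 24 and 19 without slide 1, 2 and 3. With the authors' ratios 32 of 38 were kept, and with the second brightest probe 9 of 22. All 40 that could be tested were kept among the 36170 probes well above background in all 8 mice of at least 1 group. There the p values are those of the main fit and only the adjustment was run again, so this is no separate check of the calls. Calls lost or turned in 5 alternatives or more were those of *Gabbr1*, *Gabra5*, *Gabrd* and *Grin2a* during the first hour, *Gabre*, *Grid1* and *Grik1* during the fifth, *Gria4*, *Grin2b* and *Grm7* during the ninth, and *Gabra2* and *Grik2* in treated mice from the fifth to the ninth. No alternative moved the median of all probes by more than 0.02.

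The 15 genes called during the first hour became 5 without slide 2 and 9 without slide 3, and the 15 of the fifth became 5 without slide 3. The 8 of the ninth hour became 5 with an offset of 0, 4 without slide 2 and 0 without slide 1 in limma, with 8 at an unadjusted p under 0.05. Processed signals gave 2 higher and 5 lower there, beside 4 and 4. For the ninth hour against the first, the count of 0 changed effects became 1 among probes well above background, and the 0 in control mice became 1 with that filter and 1 with the slide as a block. In treated mice the 2 from the first to the ninth hour became 1 without slide 1 and 1 with the second probe. The 3 from the fifth to the ninth became 1 with an offset of 0, without background correction, with centred log ratios, with Aquantile, without slide 2 and with the second probe, and 0 without slide 1 or slide 3 (limma, 2 and 8 at an unadjusted p under 0.05). Leaving out a slide also leaves fewer mice, and the other causes were not tested. The alternatives for treated mice between hours were chosen after seeing the data.

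The direction turned for *Gabbr1* during the first hour (−0.06), *Grm7* during the ninth (−0.13) and *Grik2* in treated mice from the first (−0.08) and the fifth hour (−0.16) to the ninth, all on the second brightest probe, and for *Gabre* during the fifth hour with processed signals (−0.06). The test on log ratios, with the array as replicate block, gave 14, 15 and 7 calls at the 3 hours and 0, 0 and 0 changes between them, with 6, 0 and 7 at an unadjusted p under 0.05 (the ninth hour against the first, the fifth against the first and the ninth against the fifth). The lack of dye exchange, the bulk tissue and probes near background, such as *Gabrp*, *Gabre* and *Gabrr3*, limit what the values show.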
